A study of Canis lupus familiaris with 77 samples.

Results

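The 4 miRNAs described here are used, or have been proposed, as references for normalising miRNA measurements, and were measured in a sequencing atlas of dog tissues. They are cfa-miR-191, cfa-miR-186, cfa-miR-140 and cfa-miR-425, here miR-191, miR-186, miR-140 and miR-425. They are 4 of the 650 miRNAs with at least 1 read, picked by name. Because they were picked as stable miRNAs with values from these data already seen, their levels are described without a test. The libraries came from untreated male beagle dogs, and the methods give the age as 10 months and the supplier's stock as Marshall. The dogs were perfused with phosphate buffered saline before the organs were taken, so as to lower the share of blood. Of the 16 tissues, 14 had 5 libraries each (brain, heart, skeletal muscle of the quadriceps, lung, liver, pancreas, kidney, duodenum, jejunum, ileum, testis, thymus, bone marrow and plasma), colon had 4 and sciatic nerve had 2. The methods give 5 dogs for all tissues and describe sciatic nerve RNA both as pooled over dogs and as partly from single dogs, so whether those 2 libraries are separate dogs is not settled. Bone marrow RNA was prepared with another reagent than the solid tissues, and the methods describe plasma RNA isolation separately. They report low RNA integrity for plasma and bone marrow, and a lower share of mapped reads for bone marrow. They also report low integrity for a subset of kidney samples, whose share of mapped reads was similar to that of other kidney samples. Thymus is described as the most variable tissue in mapped reads and miRNAs detected, which the authors say could relate to heterogeneous samples. The labels give no dog number, so libraries of different tissues that share a dog enter the tests as separate samples, and the p-values below measure only the spread between these samples.

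miRNAs are short RNAs cut from hairpin precursors, and each hairpin can release a mature strand from its 5′ arm and another from its 3′ arm. One arm is usually kept in the silencing complex, where it lowers the stability or translation of matching mRNAs, and the other is mostly degraded. Reference miRNAs serve as a yardstick for the others, which requires a level that is high and nearly the same in all samples compared. The rows of miR-191, miR-186 and miR-425 hold the 5′ arm of the hairpin, and the miR-140 row holds the 3′ arm. RefSeq's genes for UU_Cfam_GSD_1.0, an assembly other than the one the reads were aligned to, gave only names and neighbours. There MIR186 lies inside ZRANB2, a splicing factor gene, and MIR140 inside WWP2, a ubiquitin ligase gene. MIR191 and MIR425 are direct neighbours there, between NDUFAF3 and DALRD3. miR-140 is best known for its role in cartilage. miR-191 and miR-425 are known as products of adjacent hairpins that can come from 1 transcript.

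Levels are given as RPM, the reads of a miRNA per 1000000 reads on miRNAs in its library, and the libraries held between 157871 and 7896424 such reads, with a median of 1364823. A count of 3 reads, the upper limit that a count of 0 allows, corresponds to 0.380 RPM in the deepest and 19.0 RPM in the shallowest library, for counting error only. The tissue labels were checked against miRNAs known to mark brain, liver, pancreas, heart, skeletal muscle, testis, intestine and peripheral nerve. In 3 libraries every marker of the labelled tissue was below its highest value in the other tissues. Skeletal muscle library 4 had 4.54 RPM of miR-206 against 258 to 817 in the other 4. Testis library 3 had 0.493 RPM of miR-202 against 241 to 5345. Duodenum library 3 had 424 RPM of miR-215 against 480 to 91939, while for miR-192 (22363 RPM) and miR-194 (691 RPM) another duodenum library was lower. The thymus libraries also fell into sets, with 426312 and 500018 RPM of miR-181a in libraries 1 and 4 and 41991 to 53348 RPM in the other 3. Values without the first 3 libraries are given beside the miR-140 levels and in the closing section.

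miR-191, an abundant miRNA of most tissues, was the most abundant member. It took 2.42% of all reads and was between the 6th and the 19th most abundant miRNA of each tissue by the median rank. Its level ran from 6160 RPM in a pancreas library to 59578 RPM in a thymus library. By tissue median, brain was highest with 40752 RPM, followed by ileum with 35368 RPM, bone marrow with 34075 RPM, sciatic nerve with 32602 RPM and thymus with 29159 RPM. Heart with 12079 RPM and pancreas with 7594 RPM were lowest. In heart, library 4 with 31127 RPM stood apart from the other 4, which had 10464 to 12262 RPM. By Dixon's criterion for a library that stands apart, 9.37% of the groups of highly expressed miRNA and tissue held one. The highest tissue median was 5.37 times the lowest. Of the 15 pairs of neighbours in the order of tissue medians, 13 had overlapping ranges. Neighbours in a sorted order tend to overlap, so this count does not show that the tissues were alike.

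Pancreas stood apart. Its 5 libraries had 7789, 6864, 6160, 9677 and 7594 RPM of miR-191, and all were below every library of every other tissue, the next lowest being 10051 RPM in skeletal muscle. Among the 266 highly expressed miRNAs, which are those with a median above 100 RPM in at least 1 tissue, 1 (0.376%) had this property in pancreas, and it was miR-191. On the log2 scale the pancreas mean corresponded to 0.304 times the mean of the other 15 tissue means. The miRNA with the most reads in pancreas was cfa-miR-148a, with a median of 40.6% of the reads (range 22.7 to 44.5%). In brain, where miR-191 was highest, it was cfa-miR-181a with 17.8% (15.6 to 37.3%). As RPM is a share of a total, a high share of 1 miRNA lowers the RPM of the others, and its part in the pancreas value was not tested. Brain did not stand apart, since its libraries had 40752, 33545, 21668, 57787 and 51025 RPM and overlapped most other tissues.

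miR-186 had the narrowest range between tissues. Its median was 18992 RPM in bone marrow, 17008 RPM in ileum and 14387 RPM in pancreas at the upper end, and 7947 RPM in sciatic nerve, 7340 RPM in thymus and 6683 RPM in skeletal muscle at the lower end, a ratio of 2.84 between the extremes. The ranges of all 15 neighbouring pairs of tissues overlapped. The bone marrow libraries had 25303, 14656, 18992, 19079 and 16044 RPM, and the skeletal muscle libraries had 6683, 5920, 10082, 7830 and 2685 RPM. These extremes of the order did not overlap with each other, although each overlapped with other tissues. The low median of thymus came from a split group. Its libraries 1 and 4, which were also high in miR-181a, had 18360 and 17037 RPM, and its other libraries had 5169 to 7340 RPM. In skeletal muscle, cfa-miR-10b, which is coded within a HOX gene cluster, took a median of 41.7% of the reads and up to 58.3%. In bone marrow the same miRNA took 31.9%.

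miR-140 was about an order of magnitude less abundant. Its median over all libraries was 808 RPM, and it took 0.0855% of all reads. Plasma had the highest tissue median with 1784 RPM, followed by testis with 1580 RPM, sciatic nerve with 1511 RPM and brain with 1203 RPM. Jejunum with 604 RPM, liver with 525 RPM and pancreas with 320 RPM were lowest. The 5 pancreas libraries had 240, 360, 257, 478 and 320 RPM, and the 5 plasma libraries had 819, 2681, 1784, 2312 and 1609 RPM, so these tissues did not overlap. Skeletal muscle had the widest scatter, with 931, 342, 2314, 2382 and 158 RPM. The lowest of these values rests on 50 reads, the fewest of miR-140 in any library. Sciatic nerve had 1658 and 1365 RPM, and brain had 818 to 1598 RPM, so the ranges overlapped. The highest skeletal muscle value is library 4, and the lowest testis value, 442 RPM, is library 3, both low in the markers of their tissue. Without them, skeletal muscle had 158 to 2314 RPM with a median of 637 RPM, and testis had 1152 to 1811 RPM with a median of 1676 RPM.

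miR-425 was the least abundant and the most variable member. It had a median of 181 RPM over all libraries and took 0.0268% of all reads. The range from 4.81 RPM in a heart library to 1360 RPM in a plasma library spanned a factor of 283, against 9.67 for miR-191, 9.42 for miR-186 and 16.9 for miR-140. The tissue median exceeded 100 RPM in 12 of 16 tissues, while for the other members it did so in all 16. Plasma had the highest median with 1123 RPM. Ileum with 462 RPM, bone marrow with 448 RPM, liver with 441 RPM and jejunum with 416 RPM followed. Heart with 52.3 RPM and skeletal muscle with 41.6 RPM were lowest, and the highest median was 27.0 times the lowest. Although miR-191 and miR-425 are neighbours in the genome, brain was the highest tissue for miR-191 and only the eighth for miR-425.

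**Figure D1:**
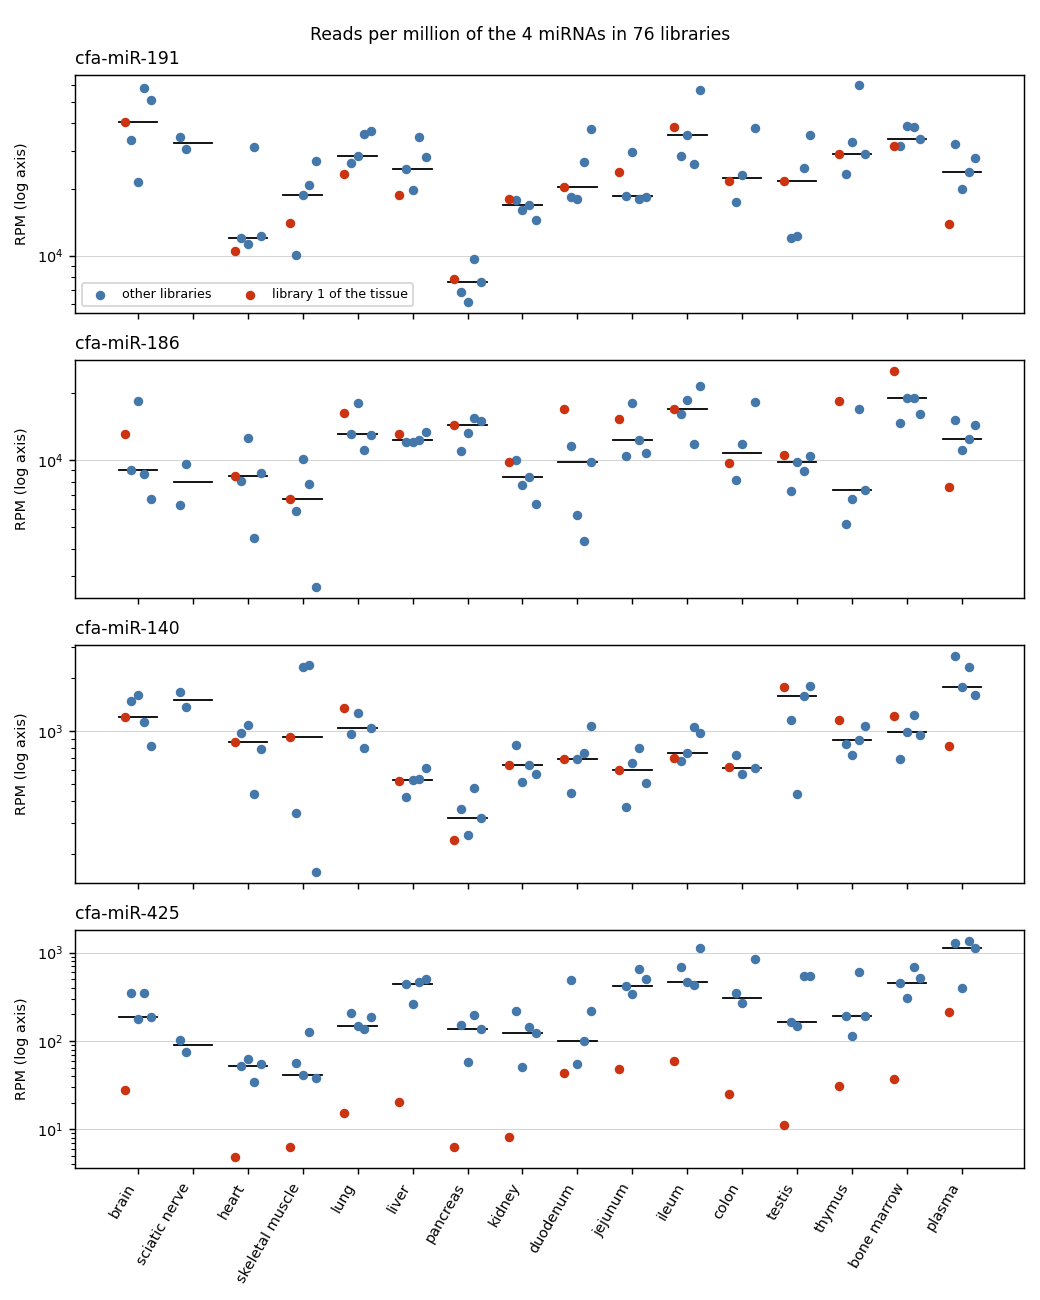
RPM (log axis) of miR-191, miR-186, miR-140 and miR-425 in each of the 76 libraries by tissue. Each point is a library, red points are library 1 of a tissue and black lines are tissue medians. The 5 pancreas libraries of miR-191 lie between 6160 and 9677 RPM, below all other libraries, and the red points of miR-425 are the lowest of their tissue in all 15 tissues that have one.

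The most prominent feature of miR-425 was a single low library in each tissue. Libraries are numbered within a tissue by their order in the labels, and library 1 carries the lowest number in its sample title. In each of the 15 tissues other than sciatic nerve, library 1 had less miR-425 than all other libraries of the tissue. In heart the 5 libraries had 4.81, 52.3, 62.2, 34.3 and 55.2 RPM. In colon library 1 had 24.8 RPM against 267 to 857 RPM, and in liver it had 20.3 RPM against 260 to 500 RPM. The median of the other libraries was between 3.69 times (duodenum) and 31.0 times (testis) the value of library 1, with a median of 11.1 over the 15 tissues. Heart library 1 was the deepest of all libraries and held 38 miR-425 reads (exact 95% interval 3.41 to 6.61 RPM). Colon library 1 had 145 reads among 5854229 (20.9 to 29.1 RPM). The value in testis rests on 3 reads (2.33 to 33.1 RPM), and there the pooled other libraries were 19.4 times higher, with an exact interval of 6.60 to 94.2. In 14 of the 15 tissues the interval of library 1 ended below the lowest of the other libraries, and the exception was duodenum.

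The other members did not share this pattern in the solid tissues. Library 1 was the lowest library of its tissue in 4 of 15 tissues for miR-191, in 1 for miR-186 and in 2 for miR-140. On the log2(RPM + 1) scale, library 1 differed from the mean of the other libraries of its tissue by a median of −3.39 for miR-425 (range −4.56 to −1.83), of −0.20 for miR-191, of 0.22 for miR-186 and of 0.03 for miR-140. Plasma was an exception, as library 1 there was the lowest for all 4 members. Of the 266 highly expressed miRNAs, 1 (0.376%) was lowest in library 1 in all 15 tissues, and it was miR-425. The next were cfa-miR-320, cfa-miR-410 and hsa-miR-4532 with 8 tissues each, so 1.5% were lowest there in at least 8 tissues. No other library number gave a miRNA that was lowest in more than 9 tissues. This comparison was made after the values had been seen, so it is a description of these libraries.

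The opposite arm of the same hairpin followed miR-425. Its row, hsa-miR-425-3p, had 0 reads in 14 of the 15 libraries numbered 1 and 2 reads in the plasma library, in 31193424 reads together. The other libraries of the same tissues held 1295 reads of it in 93232318. The pooled level in the other libraries was therefore 217 times higher, with an exact 95% interval of 59.9 to 1791 that covers counting error only. For miR-425 itself the pooled counts were 795 and 32888 reads, a ratio of 13.8 (12.9 to 14.9). miR-191, coded beside it, had 661399 and 2331879 reads, a ratio of 1.18. These pooled ratios also depend on how the reads were spread over tissues, which differed between the sets. Heart gave 7896424 of the reads in the libraries numbered 1, and kidney gave 19135517 of those in the others. Both strands of the miR-425 hairpin were thus low in the pooled reads of these libraries. By tissue, library 1 had less miR-425-3p than all other libraries in 12 of 15 tissues. In plasma it had 7.28 RPM, within the 3.60 to 24.9 RPM of the others. In skeletal muscle and testis another library also had 0 reads. In testis library 1, 3 reads correspond to 11.3 RPM, above the median of 4.25 RPM in the others, so 0 reads there do not show a lower level.

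**Figure D2:**
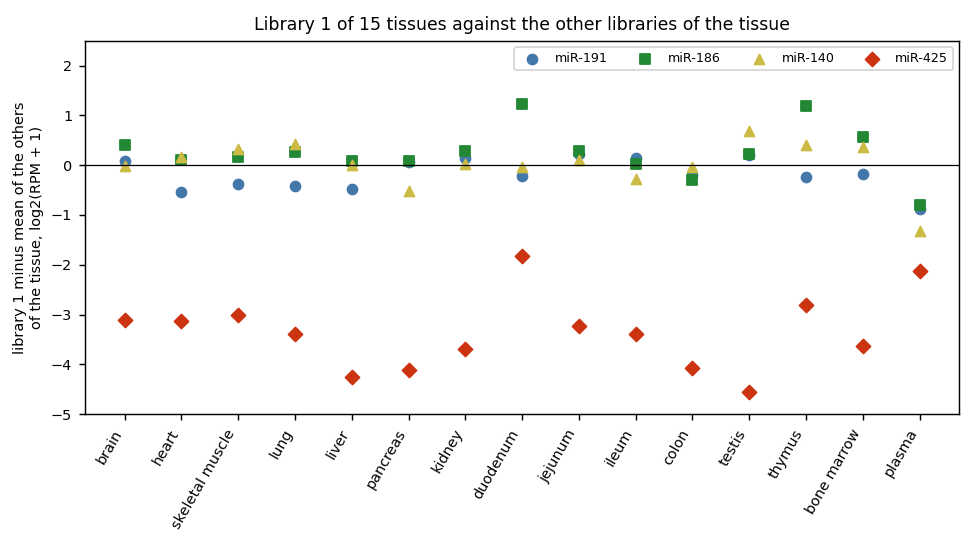
Difference between library 1 and the mean of the other libraries of the same tissue, in log2(RPM + 1), for the 4 members in 15 tissues. A point at 0 means the same level. The miR-425 points lie between −4.56 and −1.83 in all tissues, while miR-186 lies above 0 in 13 tissues and miR-191 and miR-140 lie on both sides of 0. In plasma all 4 members lie below 0.

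The titles of 13 of these 15 libraries fall within 14 consecutive numbers, which hold no other library used here. The labels do not say what the number stands for, so an animal, a day of work and a sequencing run cannot be told apart. The depth of the 15 libraries, 162310 to 7896424 reads with a median of 860145, overlapped that of the 61 others, 157871 to 6684616 with a median of 1387777. The summed level of the 3 red blood cell miRNAs (cfa-miR-451, cfa-miR-144 and cfa-miR-486) was highest in library 1 in 4 of 15 tissues and lowest in 1. That of the 4 white blood cell miRNAs (cfa-miR-142, cfa-miR-223, cfa-miR-150 and cfa-miR-155) was highest in library 1 in 6 tissues and lowest in 1. The part of blood cells, depth and batch in the low miR-425 values was not tested.

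The stability of the members was measured as the SD over the 16 tissue means of log2(RPM + 1) and as the median over tissues of the SD between libraries of a tissue. On the RPM scale miR-186 had an SD between tissues of 0.43, the smallest of the 266 highly expressed miRNAs. With TMM it had 0.56 and rank 3, and with DESeq2's size factors 0.44 and rank 2. miR-191 with 0.61 was the third and miR-140 with 0.61 the fourth. cfa-miR-361 with 0.51, also a reference candidate below, was the second. The fifth was cfa-miR-27b with 0.63, named only for this order. The rank of miR-191 ran to 11 (plasma and bone marrow left out) and that of miR-140 to 13 (DESeq2's size factors). miR-425 with 1.18 had rank 74. The median over the 266 was 1.67. The references that the study used besides miR-186 had 0.74 (cfa-miR-29a, rank 10) and 0.94 (cfa-miR-16, rank 28). The median SD within a tissue was 0.37 for miR-186, 0.44 for miR-191 and 0.36 for miR-140, against 0.53 for miR-29a, 0.51 for miR-16 and 0.57 over the 266. It was 1.54 for miR-425, the largest of the 266.

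The members differed in how much the first libraries mattered. Without the 15 libraries numbered 1, the SD of miR-425 within a tissue fell to 0.70 (rank 194), and in heart it went from 1.43 to 0.37 and in lung from 1.53 to 0.28. Its SD between tissues was 1.23 without them. The other members changed little, with SDs within a tissue of 0.37 for miR-186, 0.42 for miR-191 and 0.34 for miR-140, and SDs between tissues of 0.46, 0.61 and 0.62. The coefficient of variation was computed here as the SD over the mean of log2(RPM + 1), so it depends on the mean level and is no common scale for miRNAs of different abundance. Over all libraries miR-186 had 4.48%, miR-191 4.96%, miR-140 8.26% and miR-425 26.4%. By the limits the study applied to ubiquitous miRNAs, which are a coefficient below 10% and an SD of at most 1, 14 of the 266 highly expressed miRNAs qualified over all libraries. miR-186, miR-191 and miR-140 were among them and miR-425 was not. Of the study's other references, miR-29a qualified with an SD of 0.93, and miR-16 did not, with an SD of 1.12. The study reported smaller coefficients for its references, so its measure may differ from the one used here.

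**Figure D3:**
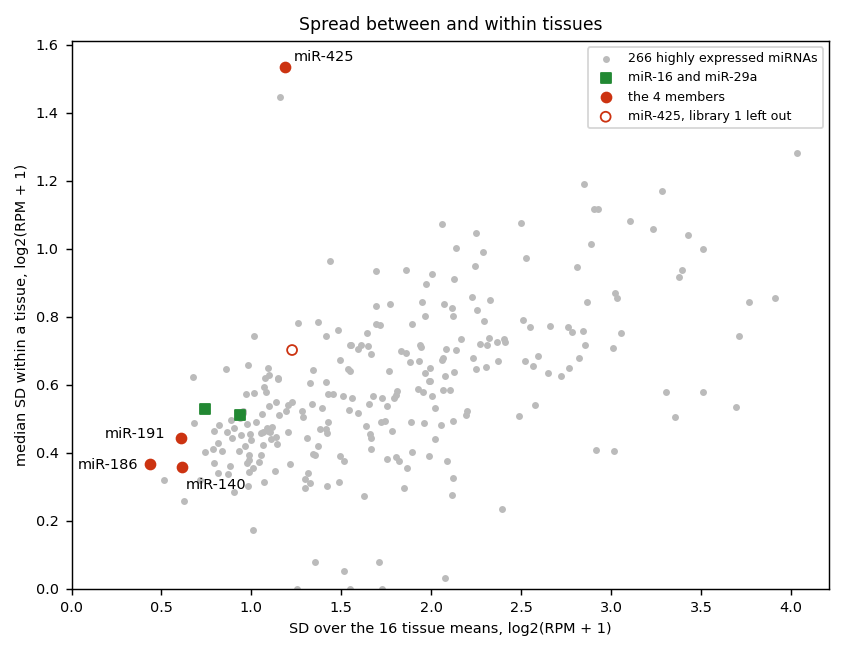
SD over the 16 tissue means against the median SD within a tissue, both in log2(RPM + 1), for 266 highly expressed miRNAs. Red points are the 4 members, green squares are miR-16 and miR-29a, and the open circle is miR-425 without library 1. miR-186, miR-191 and miR-140 lie at the lower left, with SDs between tissues of 0.43 to 0.61, and miR-425 has the largest SD within a tissue.

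The ratio of a pair of references shows how constant their relative levels were, and its SD also depends on the spread of each miRNA. The SD of the log2 ratio over all libraries was 0.82 for miR-140 against miR-191, 0.84 for miR-186 against miR-191 and 0.91 for miR-140 against miR-186. For miR-425 it was 1.74 against miR-191, 1.83 against miR-186 and 1.91 against miR-140. Without the libraries numbered 1 these fell to 1.22, 1.10 and 1.37. The smallest value among the 15 pairs of the members, miR-16 and miR-29a was 0.69, for miR-186 and miR-29a. All values come from the same libraries and totals. Over the 16 tissue medians, the Spearman correlation of miR-191 was 0.17 with miR-186, 0.48 with miR-140 and 0.49 with miR-425, and that of miR-186 with miR-425 was 0.67. miR-140 had −0.16 with miR-186 and −0.0029 with miR-425. Each of these describes 16 points that share 1 total per library.

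The miRNAs most like each member over the 16 tissue medians were not other members. For miR-191 they were cfa-miR-103 (Spearman 0.76), cfa-miR-222 (0.76) and cfa-let-7d (0.74). For miR-186 they were cfa-miR-339 (0.86), cfa-miR-106b (0.86) and cfa-miR-19b (0.83). For miR-140 they were cfa-miR-1271 (0.77), cfa-miR-1343 (0.75) and cfa-miR-421 (0.72). For miR-425 they were cfa-miR-106b (0.89), cfa-miR-93 (0.87) and cfa-miR-15a (0.84). miR-106b and miR-93 are coded in the same cluster, and miR-19b belongs to a related cluster. Without the libraries numbered 1 the correlation of miR-425 with miR-106b was 0.91.

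Reads of miR-191 per read of miR-425 varied widely although the hairpins are neighbours. Without library 1, the median ratio over libraries was lowest in plasma with 25.0 (range 17.6 to 49.9) and next lowest in jejunum with 40.8, colon with 50.0 and pancreas with 52.6. It was highest in sciatic nerve with 370 and skeletal muscle with 317 (166 to 710), and in heart it was 227 (182 to 909). The plasma range overlapped that of jejunum, 28.1 to 87.3, and was below that of brain, 96.8 to 276. This ratio does not depend on the total reads of a library. With all 5 libraries pooled, library 1 included, plasma had 25.1 miR-191 reads per miR-425 read (Wilson interval 24.5 to 25.7) and brain had 159 (153 to 166). These intervals cover counting error only, as single libraries ran from 17.6 to 64.9 in plasma and from 96.8 to 1456 in brain.

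**Figure D4:**
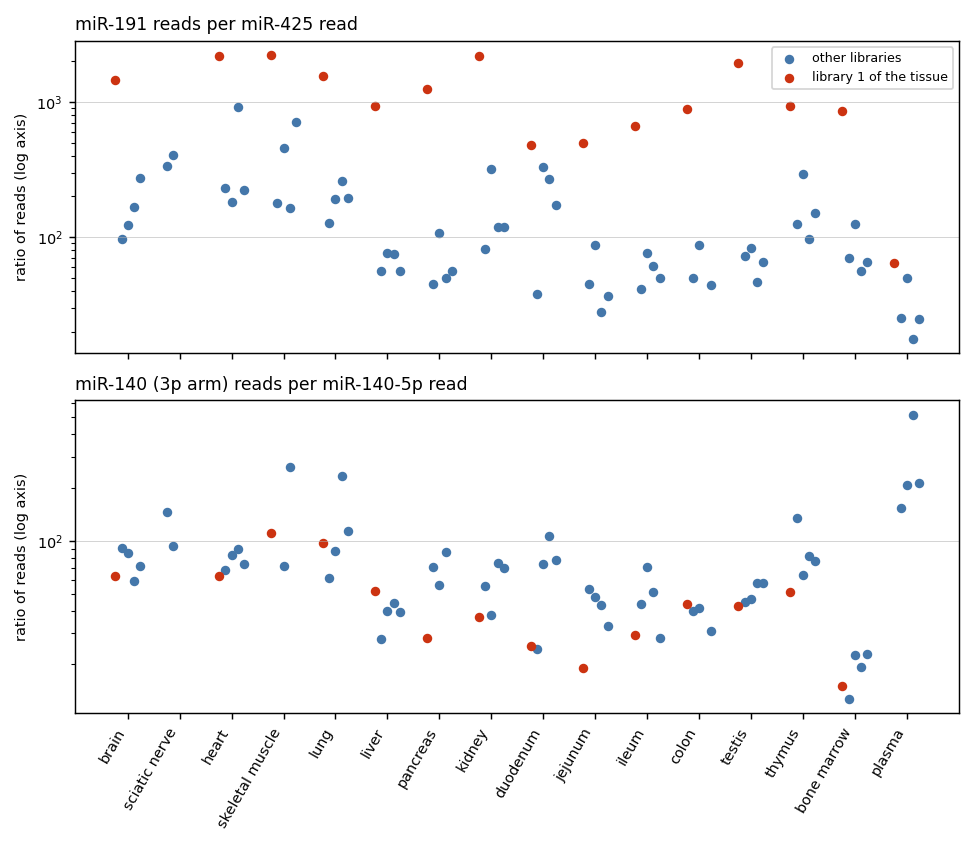
Reads of miR-191 per read of miR-425 (top) and of the miR-140 3′ arm per read of its 5′ arm (bottom), on log axes, by tissue. Each point is a library with at least 1 read of the denominator, and red points are library 1 of a tissue. In the upper panel the red points are the highest of their tissue, and in the lower panel bone marrow, at 12.8 to 22.9, lies below every other tissue except jejunum, and plasma reaches 517.

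Plasma is the fluid in which reference miRNAs are most often needed, and the members differed there. The summed red blood cell miRNAs made up 54.4 to 81.6% of plasma reads, and cfa-miR-486 alone made up 42.3 to 76.1%. On the log2(RPM + 1) scale, plasma differed from the mean of the other 15 tissue means by −0.02 for miR-191, 0.14 for miR-186, 1.11 for miR-140 and 2.44 for miR-425. The plasma libraries had 13934, 32094, 20011, 23955 and 27832 RPM of miR-191, and their range overlapped that of 14 of the other 15 tissues, pancreas being the exception. The range of miR-186 overlapped that of all 15. For miR-140 the plasma range was above that of liver, pancreas, jejunum and colon. For miR-425, with 215, 1275, 401, 1360 and 1123 RPM, it was above that of sciatic nerve, heart, skeletal muscle, lung and pancreas.

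The scale decided how close to the tissues plasma appeared. With library sizes scaled by TMM, which takes most miRNAs as unchanged, the differences became 0.68 for miR-191, 0.84 for miR-186, 1.82 for miR-140 and 3.15 for miR-425. With the reads of the 3 red blood cell miRNAs left out of the totals, they were 1.55, 1.71, 2.69 and 4.02. On that last scale plasma library 1, in which all 4 members had their lowest RPM and in which miR-486 was highest, no longer stood at the low end for every member. On that scale it had a miR-191 level of 75617 against 59811 to 88066 in the other 4 libraries, and a miR-186 level of 41235 against 31065 to 45353. For miR-140 and miR-425 it stayed the lowest, with levels of 4443 and 1165.

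The opposite arms were tested, because the rule had not used them. Each tissue was compared with the mean of the other 15 by edgeR's quasi-likelihood test over 480 miRNAs. miR-140-5p, the minor arm of its hairpin here, was higher in bone marrow by 1.60 on the log2 scale (SE 0.31, adjusted p = 1.07e-05), where edgeR called 16.5% of the miRNAs higher. The bone marrow libraries had 80.1, 54.4, 43.2, 63.5 and 41.4 RPM. In pancreas it fell by 1.32 (SE 0.36, adjusted p = 0.00177), where 19.2% of miRNAs were called lower. The pancreas libraries had 8.50, 5.04, 4.54, 5.49 and 0 RPM. The pancreas call was lost when any 1 of 4 single libraries was left out (colon 3, kidney 5, plasma 3 or plasma 5), with a value of −0.88 without plasma 3. In brain it fell by 0.87 (SE 0.32, adjusted p = 0.0132), where 28.1% were called lower, but this call was lost under 6 alternatives. With library sizes taken as they are the edgeR value was 0.22 (adjusted p = 0.626), with DESeq2's size factors −0.10, without sciatic nerve −0.46, without the libraries numbered 1 −0.44 and without the libraries low in tissue markers −0.18. It did not pass this test in the other 13 tissues. In lung it was lower with DESeq2 (−1.10, adjusted p = 0.000627) and with DESeq2's size factors in edgeR (−1.10, adjusted p = 0.00633). In testis it was higher with DESeq2 (0.77, adjusted p = 0.0323) and with library sizes as they are in edgeR (0.89, adjusted p = 0.0498). miR-425-3p passed in none of 16 tissues by edgeR, which called 24.8 to 73.3% of the miRNAs in a tissue, although 2 tissues, kidney and plasma, had an unadjusted p under 0.05, and DESeq2 called none either. Without the libraries numbered 1 it passed in 3, with log2 values of 1.10 in kidney, 1.08 in plasma and −2.04 in skeletal muscle. It also passed in 6 tissues by edgeR with the title order of the libraries as a term, an alternative chosen after seeing the data. miR-186-3p had 97 reads in all, with 40 libraries at 0, and the filter on low counts removed it from the test. DESeq2 called it higher in jejunum (2.30, adjusted p = 0.0146), as did edgeR without the filter (2.71, adjusted p = 6.27e-05), which also called it higher in plasma (2.04, adjusted p = 0.00952).

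The arms of the miR-140 hairpin were not used in a fixed ratio. The 3′ arm exceeded the 5′ arm in every library with reads of both. The pooled ratio was 17.9 in bone marrow (Wilson interval 13.6 to 23.4) and 219 in plasma (171 to 282), and between 35.5 and 114 in the other tissues. In bone marrow the 5 libraries had ratios of 12.8 to 22.9, which overlapped the range of 1 other tissue, jejunum, where library 1 had 19.1. Plasma had 153 to 517 in the 4 libraries with a 5′ arm read, and library 1 had no 5′ arm read beside 225 of the 3′ arm. The 5′ arm counts were small, with 55 reads in all of bone marrow and 61 in all of plasma. The ratio of 517 rests on 7 of them. RNA of both tissues was prepared apart from the solid tissues and had low integrity, and the part of this in the ratios was not tested. By the median, bone marrow had 984 RPM of the 3′ arm and plasma 1784 RPM, while bone marrow was the highest tissue for the 5′ arm.

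Other miRNAs that are often used as references gave a comparison for plasma. Of 20 such candidates, a list that leaves the members out, 19 were in the table and 14 passed the test in plasma, 9 higher and 5 lower, where edgeR called 52.7% of all miRNAs, 27.9% higher and 24.8% lower. With library sizes taken as they are, 16 passed, 8 higher and 8 lower. The largest changes were 5.11 for cfa-miR-423a (SE 0.15, adjusted p = 2.49e-41) and 4.57 for cfa-miR-93, with 13900 RPM in plasma against 1110 RPM over the other tissue means. cfa-miR-16, used by the study as a reference for qPCR of tissues, was higher by 3.11 (SE 0.19, adjusted p = 1.86e-23) with 35684 ± 10269 RPM (SD, n = 5) in plasma. The study did not use its references, miR-186 among them, for serum, as their levels there differed between control and dosed dogs. cfa-miR-103 was higher by 2.53. cfa-let-7a and cfa-miR-26a had changes of −3.03 and −3.54. The row named hsa-miR-3184-5p, which also carries the name of miR-423-3p, was higher by 3.74.

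The 5 candidates that did not pass were cfa-miR-22 with −0.54 (SE 0.25, adjusted p = 0.0596), cfa-miR-26b with −0.11, cfa-miR-320 with 0.10, cfa-miR-361 with 0.17 and cfa-miR-29a with 0.39 (SE 0.23, adjusted p = 0.16). miR-29a, a reference of the study, passed with DESeq2 (0.47, adjusted p = 0.0374) and with its size factors in edgeR (0.47, adjusted p = 0.0405). miR-22 passed as lower by edgeR without the filter (−0.60, adjusted p = 0.0443), with library sizes as they are (−1.23) and without the libraries low in tissue markers (−0.57, adjusted p = 0.0457). With library sizes as they are, miR-26b (−0.66) and miR-361 (−0.52) also passed as lower. The values called by edgeR with its TMM scaling are on the scale on which the members' own differences in plasma were the 0.68 to 3.15 given above. On the RPM scale of the tissue means, the SD between tissues of the 19 candidates ran from 0.51 for miR-361 to 1.35 for miR-423a, with a median of 0.98. A value that misses the threshold does not show equal levels.

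**Figure D5:**
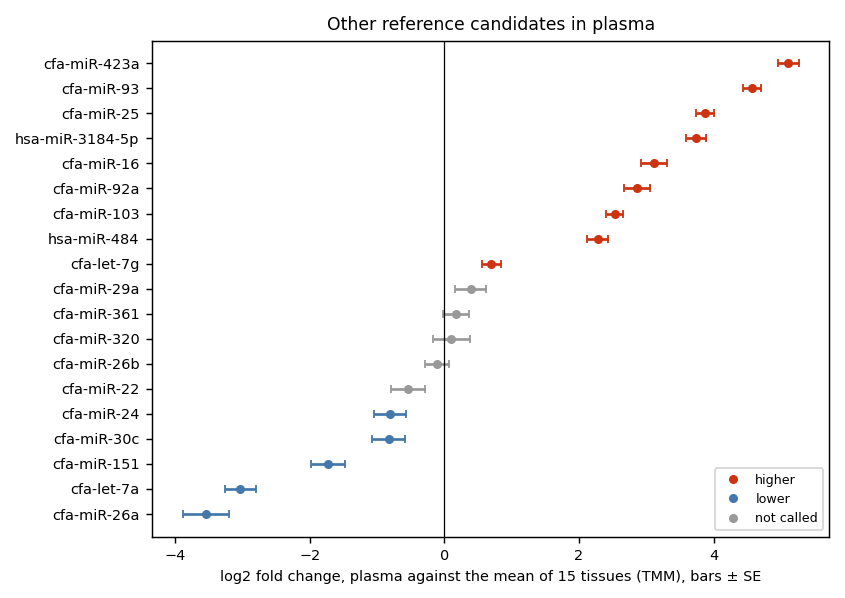
Log2 fold change of 19 reference candidates in plasma against the mean of the other 15 tissues, on the TMM scale, with bars of ± 1 SE. Red and blue mark candidates called higher and lower by edgeR (adjusted p under 0.05), and grey those not called. The values run from −3.54 for miR-26a to 5.11 for miR-423a, with 9 red, 5 blue and 5 grey points.

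The members were also used as a scale for the other miRNAs. Over the 262 highly expressed miRNAs that are not members, the median SD within a tissue was 0.57 in log2(RPM + 1) and the median SD between tissues 1.69. After the mean of the 4 members was subtracted in each library, these were 0.67 and 1.76. Without the libraries numbered 1 the direction within a tissue turned, with 0.51 after subtraction against 0.55 before it. With the study's 3 references, miR-16, miR-29a and miR-186, they were 0.62 and 1.77. With 1 member at a time, the SD within a tissue was 0.59 for miR-140, 0.60 for miR-186 and 0.62 for miR-191, but 1.73 for miR-425. With miR-425 left out of the mean of the members, it was 0.54 and the SD between tissues 1.70. The mean of all 4 members was itself highest in plasma and lowest in pancreas, with a range of 1.77 on the log2 scale, and without miR-425 it was highest in bone marrow, with a range of 1.42.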

How the data were processed

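Small RNA libraries (TruSeq) were made by the authors, who clipped adaptors, aligned reads with OSA to CanFam3.1 without mismatches, dropped reads at more than 10 loci and counted reads overlapping a miRNA by at least 70%. The deposited counts are raw reads per miRNA and library. The deposited RPM, a signal scaled by the authors to each library's total miRNA reads, was recomputed from the counts with a largest relative difference of 2.89e-09. Summed counts exceeded the deposited totals by 0.0449 to 1.16%. The deposited maximum RPM over samples was not used, nor was 1 sample name without a matching label, and 1 labelled colon sample has no values here. Totals ran from 157871 to 7896424 reads per library, and intervals cover counting error only.

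Levels were summarised as log2(RPM + 1). Opposite arms and reference candidates were tested with edgeR 4.0.16 in R 4.3.3 (quasi-likelihood test, TMM, filter on low counts, Benjamini-Hochberg within a contrast, threshold 0.05, two-sided), each tissue against the mean of the other 15, with DESeq2 1.42.0 as an alternative. Tested on simulated data for the plasma comparison (420 miRNAs), edgeR recovered 62.2% of changes of 1 and 94.5% of changes of 2 on the log2 scale. The simulated libraries were independent, and each miRNA had the same mean in all tissues except for changes in plasma, set as often up as down. The real tissues differ from this setting, so these rates do not carry over to them. The other alternatives were other size factors, no filter, the study's rank-sum test, tissues or libraries left out, a block by title order and other sets of references. Named miRNAs were the members, their opposite arms, the study's references, the candidates, the 5 smallest spreads and the 3 miRNAs most like each member. miRNAs named for library 1 or as a tissue's most abundant were chosen after their values were seen. The members and lists were chosen with earlier results of these data known. Mature sequences were not used here. All other values were computed in Python 3.11.15.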

Additional observations from a re-analysis of the deposited data

Results flagged for a closer look

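In groups of 4 or 5 libraries, a library far from the rest was sought by the gap between the extreme value and its nearest neighbour, a criterion that chance alone meets in about 1 of 20 groups. Over all 266 highly expressed miRNAs and the 15 tissues, 9.37% of groups met it. Among the 4 members, miR-186 and miR-140 had no such tissue. miR-191 had 1, heart, where library 4 had 31127 RPM and the other 4 had 10464 to 12262 RPM.

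miR-425 had 6 such tissues, each with library 1 far below the others. Library 1 had 28.0 RPM in brain, 4.81 RPM in heart, 15.1 RPM in lung, 20.3 RPM in liver, 48.4 RPM in jejunum and 37.0 RPM in bone marrow. miR-425-3p had 5, with 0 reads in library 1 of lung, liver, jejunum, ileum and bone marrow. miR-140-5p had 2, with 4.89 RPM in heart library 4 (3 reads) and 0 RPM in pancreas library 5. What the libraries numbered 1 share besides a low title number was not tested.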

How the results depend on the processing

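The SD between tissues of each member moved by less than its SD within a tissue under the alternatives run. This yardstick is too wide to show stability. It was 1.54 for miR-425, whose SD between tissues was 1.18, and 0.37 for miR-186, whose SD between tissues was 0.43. The rank of each member among the 266 changed in the alternatives that left out no single library. It ran from 1 to 3 for miR-186, 3 to 11 for miR-191, 3 to 13 for miR-140 and 70 to 93 for miR-425. Leaving out each library in turn gave 0.595 to 0.634 for miR-191, 0.402 to 0.462 for miR-186, 0.595 to 0.645 for miR-140 and 1.12 to 1.25 for miR-425. The plasma difference of miR-191, −0.02, changed sign to 0.68 with TMM, 0.81 with DESeq2's size factors, 0.095 with medians, 0.020 without bone marrow, 0.13 without the libraries numbered 1 and 1.55 with red blood cell miRNAs left out of the totals. It was −0.15 to 0.15 over single libraries left out, with the sign changing without plasma library 1 or 3. In the same order of TMM, DESeq2's size factors and red blood cell miRNAs left out, miR-186 moved to 0.84, 0.97 and 1.71, and miR-140 to 1.82, 1.95 and 2.69. miR-425 moved to 4.02 under the last. Single libraries left out gave 0.05 to 0.30 for miR-186, 0.95 to 1.38 for miR-140 and 2.20 to 2.87 for miR-425. TMM and DESeq2's size factors shifted plasma by −0.65 and −0.77 on the log2 scale. Scaling by miR-425 alone gave a spread within tissues of 1.73. Leaving out single libraries gave spreads within and between tissues of 0.552 to 0.579 and 1.66 to 1.72 without scaling, 0.651 to 0.683 and 1.73 to 1.79 with the 4 members, and 0.595 to 0.637 and 1.73 to 1.80 with the study's references. The 3 arm calls became 5 with DESeq2, 5 without the filter and 5 without the libraries numbered 1, and 0 with the study's rank-sum test and fold limit, where 7 of 48 pairs of arm and tissue had an unadjusted p under 0.05. Single libraries left out gave 2 to 6 calls, with 6 without either sciatic nerve library. The pancreas call of miR-140-5p was lost without colon library 3, kidney library 5, plasma library 3 or plasma library 5, with values of −1.86 to −0.88 over all libraries left out. With library sizes as they are, miR-140-5p in brain became 0.22 and, in plasma, miR-29a −0.31, miR-320 −0.66, miR-361 −0.52 and let-7g −0.066. Without the libraries numbered 1, miR-26b became 0.10. The candidate count was 14 to 16 throughout. Without the 3 libraries low in tissue markers there were 2 arm calls and 15 candidate calls, the SDs between tissues were 0.61, 0.44, 0.65 and 1.23 for miR-191, miR-186, miR-140 and miR-425, their plasma differences −0.04, 0.13, 1.11 and 2.45, and the spread within tissues after scaling by the 4 members 0.66. Alternatives on the libraries numbered 1, tissue markers, red blood cell miRNAs, the block and the mean without miR-425 were chosen after seeing the data. The causes of these changes were not tested. The labels carry no replicate or dog number, but the title numbers repeat the order of the tissues in 5 blocks. A fit with this replicate block gave 9 arm calls (5 higher, 4 lower) in place of 3, with miR-425-3p called in bone marrow, heart, jejunum, kidney, plasma and skeletal muscle, and left the candidate count at 14. Whether a block is a dog is not stated. Of 76 libraries, 31 correlated best with their own block, with a median correlation of 0.062 against −0.018 with the others. With 5 blocks, about 1 in 5 libraries would do so by chance, and the count was not tested. Shallow libraries limit the arms most, since 3 reads correspond to up to 19.0 RPM.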
